A study of Mus musculus with 26 samples.

Results

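The genes of the mitochondrial ribosome were examined in RNA-seq data of the mouse choroid plexus (ChP), the epithelium-covered tissue of the ventricles that secretes cerebrospinal fluid. All 78 genes whose symbol begins with Mrpl or Mrps and a number, apart from 6 pseudogenes, were taken as members, provided that their mean level reached 1 CPM (a count per 1000000 counts of the library) in both main groups. All 78 passed that minimum, out of 13697 genes of the table that did so and 55416 genes listed.

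The study asked how the daily transcript rhythms of the ChP of the 4th ventricle depend on the suprachiasmatic nucleus (SCN), the central circadian pacemaker of the brain. Adult male C57Bl6J mice received a sham operation (Ctrl, n = 12) or bilateral lesions of the SCN (SCNx, n = 12). They were kept in constant darkness from circadian time 0 (CT0), and 1 mouse per group was sampled every 4 h from CT0 to CT44, so that both cycles together hold 2 mice of a group at each phase. A further group (KO) held 2 FoxJ1-ERT2-Cre+/-; Bmal1fl/fl mice fed a tamoxifen diet in a 12:12 light-dark cycle, 1 sampled by day at ZT7 and 1 at night at ZT18. In that line the recombinase is driven by Foxj1, which is active in cells with motile cilia, ChP epithelium included, so other cells of the tissue keep Bmal1 (Arntl). The KO tissue was cut from frozen sections by laser capture and made into total RNA libraries with a low input kit, while the Ctrl and SCNx tissue was dissected whole and made into mRNA libraries. By the paper, the KO mice were also older, were kept at another facility and gave RNA of lower average integrity. Genotype, diet, age, housing, dissection, RNA integrity, kit and lighting therefore cannot be told apart in any comparison with KO. That comparison has no replicates of KO and no test.

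Mitochondria keep a small genome of their own, and its 13 messages, all for subunits of the respiratory chain and ATP synthase, are translated by a separate ribosome inside the organelle. The RNAs of that ribosome are mitochondrially encoded, but every one of its proteins is made from a nuclear gene and imported. Some of these proteins descend from those of the bacterial ribosome and others were added in the mitochondrial lineage. The ChP epithelium is rich in mitochondria, and its ion pumping and secretion use much ATP.

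Of the members, 51 belong to the large subunit, 26 to the small subunit and 1 to neither. The symbols do not always give the place: Mrps30 and Mrps18a, named for the small subunit, sit in the large one, and Mrps36 is now known as a subunit of the 2-oxoglutarate dehydrogenase complex. It stayed in the list because the symbol chose the members.

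The libraries of Ctrl and SCNx held 38751162 to 49527614 counts and the KO libraries 17425176 and 18059213. ChP epithelial markers such as Ttr and Enpp2 summed to 141871 to 170893 CPM in Ctrl and 114510 to 164016 CPM in SCNx, and to 86904 and 82685 CPM in KO. Some libraries stood apart: hepatocyte markers summed to 1745 CPM in Ctrl CT16 and 10243 CPM in SCNx CT0 against medians of 1.69 and 3.37 CPM, and astrocyte markers to 322 CPM in Ctrl CT4 and 840 CPM in SCNx CT32 against medians near 54.9 CPM in both groups. In bulk tissue, fewer cells of a type and less RNA per cell cannot be told apart. As a check of the test for 24 h rhythms, Arntl, the gene of BMAL1, was called in Ctrl with a log2 amplitude of 2.23 and the clock output gene Dbp with 2.04, and all 12 clock genes listed passed.

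Sequences ahead of the transcription start are shown for members with a called rhythm in Ctrl, a choice that rests on the threshold of the test. They come from RefSeq windows of GRCm38.p6 that run from 250 bases before to 50 after each annotated start, and they are trimmed to bases that no annotated exon covers. The stretch ahead of Mrps17 is chr5:129715397-129715496 on the plus strand, that of Mrps2 is chr2:28467966-28468065 on the plus strand and that of Mrps25 is chr6:92184034-92184123 on the minus strand. None of the motifs searched lies in these windows, so no letters are in capitals.
Mrps17: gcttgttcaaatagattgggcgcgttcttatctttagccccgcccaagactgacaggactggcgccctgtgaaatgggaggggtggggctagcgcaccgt
Mrps2: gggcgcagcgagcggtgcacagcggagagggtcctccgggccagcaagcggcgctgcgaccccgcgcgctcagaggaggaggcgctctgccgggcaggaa
Mrps25: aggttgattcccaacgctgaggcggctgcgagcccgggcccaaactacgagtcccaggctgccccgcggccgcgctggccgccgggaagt

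The window of Mrpl36, the fourth member with a called rhythm, is not printed because an exon of Ndufs6 on the other strand covers the stretch before its start. It held an E-box (CACGTG), the letters bound by the CLOCK and BMAL1 pair, 43 bases before the start, a YY1 motif (AAGATGGCG) 31 bases before it, and a heat shock element (GAANNTTC) 18 bases after it. RefSeq windows were at hand for 69 members, 75 windows in all, as some genes have several starts. The E-box was found in 9.33% of them and in 9.61% of the windows of all tested genes. The D-box (TTATGTAA), bound by DBP and related factors, was found in none of the windows of members and in 0.541% of those of tested genes. Both strands were searched for every motif.

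The motif found in most windows of members was the binding site of ETS factors such as NRF2 (GABP), regulators of nuclear genes for mitochondrial proteins. Its letters (CCGGAAG) were in 26 windows of members, 34.7%, against 16.4% of the windows of tested genes and 8.86% of all RefSeq windows. The YY1 motif was in 10.7% against 2.82%, the NRF1 motif (GCGCATGCG) in 9.33% against 3.39%, and the heat shock element in 6.67% against 5.66%. No YY1 match overlapped an ETS match. A match is a run of letters and no measured site. Members with the ETS letters in capitals are shown for Mrpl43, which holds them 2 times, for Mrps18a, and for Mrps22 and Mrpl52, which are taken up again under KO. They lie at chr19:45006443-45006542 on the minus strand, chr17:46110904-46110985 on the plus strand, chr9:98601680-98601779 on the minus strand and chr14:54426809-54426908 on the plus strand of GRCm38.p6, in that order.
Mrpl43: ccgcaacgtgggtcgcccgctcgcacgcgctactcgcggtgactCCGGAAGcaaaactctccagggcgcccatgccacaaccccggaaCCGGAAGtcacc
Mrps18a: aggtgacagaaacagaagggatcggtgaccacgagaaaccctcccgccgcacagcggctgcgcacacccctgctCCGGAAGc
Mrps22: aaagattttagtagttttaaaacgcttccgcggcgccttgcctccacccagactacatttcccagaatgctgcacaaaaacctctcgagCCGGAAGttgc
Mrpl52: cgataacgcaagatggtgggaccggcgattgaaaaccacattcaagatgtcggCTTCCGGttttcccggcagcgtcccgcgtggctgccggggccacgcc
In Mrpl52 the capitals are the same motif read on the other strand.

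The members were expressed at moderate levels that differed between genes. Mean CPM in Ctrl ran from 7.90 for Mrpl52 to 97.3 for Mrps6 with a median of 18.8, and the members together made up 1810 CPM in Ctrl and 1793 CPM in SCNx. Levels of different genes were compared only per kilobase of the longest coding transcript (GENCODE annotation of GRCm38). On that scale Mrps6, a protein of the small subunit of bacterial descent, was highest with 115 CPM per kb, followed by Mrps21 with 87.8 and Mrpl42 with 71.2. Mrpl17, Mrpl35 and Mrps26 were lowest with 3.84, 4.06 and 4.09 CPM per kb, and the annotated transcripts of these 3 are long. Mrps6 shares 159 exon bases with Slc5a3 on the same strand, a gene for an inositol transporter, so its value may hold reads of both.

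A rhythm of 24 h was called in Ctrl for 4 of the 78 members, against 10.7% of all tested genes, with edgeR's quasi-likelihood test and Benjamini-Hochberg adjustment over the 13697 genes. They were Mrps17, Mrpl36, Mrps2 and Mrps25, of which all except Mrpl36 are proteins of the small subunit. At an unadjusted p under 0.05 there were 16 members against 24.8% of all genes. The difference between these shares was not tested, and leaving out 1 library gave 1 to 7 members called in Ctrl. The spread of each gene was estimated from both groups together, so SCNx mice also entered this test. Among members of the small subunit 3 of 26 passed and among those of the large subunit 1 of 51, a difference that was not tested.

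Mrps17, a protein of bacterial descent that binds the RNA of the small subunit, varied in Ctrl from 26.5 CPM at CT8 over a median of 30.2 to 38.5 CPM at CT20. In SCNx it varied from 28.3 CPM at CT32 over a median of 30.1 to 34.3 CPM at CT20. The Ctrl mice sampled at CT20, CT24 and CT44 were the 3 highest with 38.5, 34.9 and 34.3 CPM, and those of CT8 and CT32 the 2 lowest, so high and low values came back at the same phases of both cycles. The fitted log2 amplitude in Ctrl was 0.19 ± 0.04 (SE, 12 mice) with a peak at 21.9 h and an adjusted p of 0.00288 (edgeR). The SE of this and every other amplitude came from a least-squares cosine on log2 CPM of 1 group, not from the edgeR fit. In SCNx the amplitude was 0.06 ± 0.03 with an adjusted p of 0.528, and for the difference of the rhythms edgeR gave an adjusted p of 0.173, so a loss in SCNx was not shown.

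Mrpl36, a very short protein of bacterial descent in the large subunit, varied in Ctrl from 15.1 CPM at CT8 over a median of 18.6 to 23.9 CPM at CT44. In SCNx it varied from 15.5 CPM at CT32 over a median of 18.7 to 22.1 CPM at CT16. Its highest Ctrl libraries, CT44, CT20 and CT24, were those of Mrps17. The log2 amplitude was 0.23 ± 0.05 in Ctrl, the largest of all members, with a peak at 21.7 h and an adjusted p of 0.0160 (edgeR), and 0.07 ± 0.06 in SCNx. For the difference of both rhythms the p was 0.0467 before and 0.323 after adjustment (edgeR). Ndufs6, a subunit of complex I that starts 29 bases away on the other strand and shares 30 exon bases with it, had an amplitude of 0.09 with a peak at 22.5 h and an adjusted p of 0.613 (edgeR).

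Mrps2, of bacterial descent as well, varied in Ctrl from 28.2 CPM at CT4 over a median of 30.6 to 40.5 CPM at CT44, and in SCNx from 26.2 CPM at CT32 over a median of 33.1 to 39.9 CPM at CT40. The groups overlapped almost fully. The log2 amplitude was 0.21 ± 0.04 in Ctrl with a peak at 20.6 h and an adjusted p of 0.0160, and 0.11 ± 0.06 in SCNx with an adjusted p of 0.386 (edgeR). Mrps25, a protein of the small subunit with no bacterial counterpart, had the smallest amplitude of the 4. It varied in Ctrl from 28.1 CPM at CT12 over a median of 32.4 to 34.7 CPM at CT4, and in SCNx from 29.8 CPM at CT32 over a median of 32.5 to 36.2 CPM at CT16.

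For Mrps25 the fitted peak fell at 0.11 h in Ctrl with a log2 amplitude of 0.10 ± 0.03 and at 18.9 h in SCNx with 0.10 ± 0.02. Both cycles were of nearly equal size but peaked hours apart. The adjusted p was 0.0440 in Ctrl, 0.152 in SCNx and 0.154 for the difference, the smallest of all members for the difference (edgeR). The call in Ctrl held under 18 of 35 alternatives, and in 11 of the 24 fits that left out 1 library. Mrps25 shares 4590 exon bases with Nr2c2 on the other strand, and whether the counting used strand is not given in the sources used here, so its counts may include reads of that neighbour. DESeq2 also called Mrps25 in SCNx with an adjusted p of 0.0400, the only member it called there, against 3.15% of all genes, while in Ctrl it called 6 members against 15% of all genes.

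**Figure D1:**
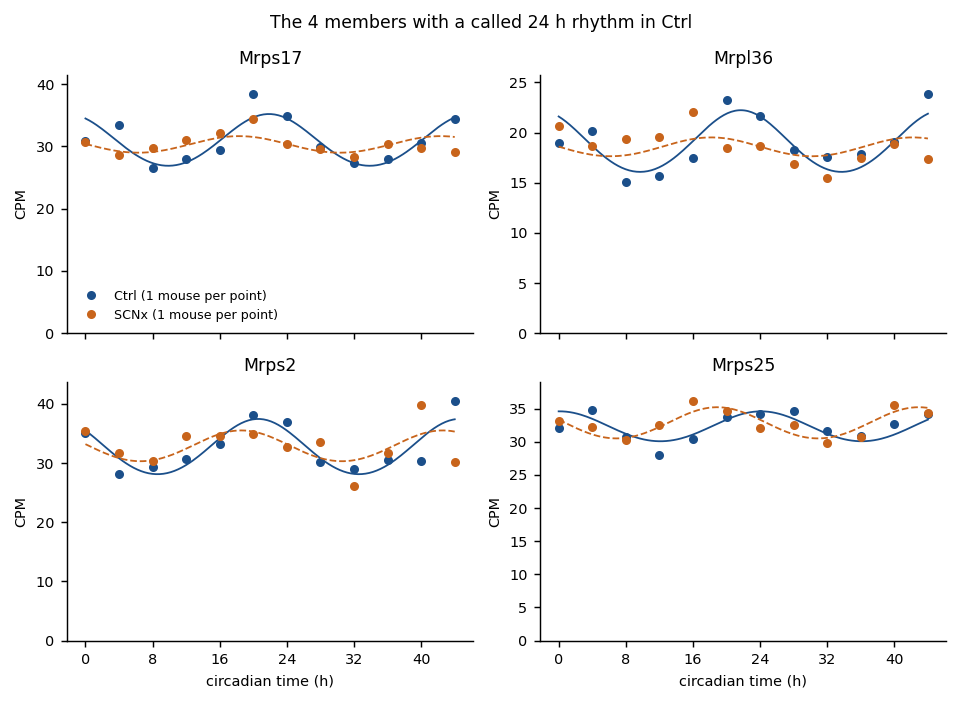
Level in CPM of Mrps17, Mrpl36, Mrps2 and Mrps25 by circadian time, with 1 mouse per point (blue, Ctrl; orange, SCNx), and the 24 h cosine fitted to each group (solid line, Ctrl; dashed line, SCNx). Mrps17 and Mrpl36 are highest in Ctrl at CT20, CT24 and CT44, while the SCNx points lie within the range of Ctrl except the lowest of Mrps2 and the 2 highest of Mrps25.

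Just outside the threshold lay Mrpl35, a protein of the large subunit, with an amplitude of 0.15 in Ctrl, a peak at 22.02 h and an adjusted p of 0.0545 (edgeR). Mrps23, Mrps31 and Mrps12 followed with adjusted p of 0.0793, 0.0930 and 0.115 (edgeR) and peaks at 20.5, 22.4 and 19.9 h. Mrps12 is the homologue of the bacterial protein at the decoding centre, and it ranged from 14.9 CPM at CT8 over a median of 18.1 to 21.6 CPM at CT44. Its neighbour Sars2, the mitochondrial seryl-tRNA synthetase, starts 172 bases away on the other strand and had an amplitude of 0.05 with an adjusted p of 0.878 (edgeR). Mrps9 and Mrps10, both of bacterial descent, were the exceptions among the 10 members with the smallest p: their fitted peaks fell at 6.14 and 5.83 h, with adjusted p of 0.123 and 0.127 (edgeR).

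Most fitted peaks of the members lay in the late subjective night whether or not the rhythm passed. In Ctrl 47 of 78 peaks (60.3%) fell between 18 and 24 h, against 29.6% of all tested genes, and only 11 fell between 6 and 18 h, against 48.7%. In SCNx 53 of 78 (67.9%) fell between 18 and 24 h against 25.3%. The median log2 amplitude of the members was 0.085 in Ctrl and 0.086 in SCNx, against 0.110 and 0.091 over all genes. The amplitude was larger in Ctrl for 37 of the 78 members, against 7568 of all 13697 tested genes. Genes that share libraries share deviations, so these shares are descriptions.

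The share of SCNx peaks in that window depended on single libraries. Of the 78 peaks, 51 (65.4%) fell between 16 and 20 h, against 21.0% of all genes, so many lay near its edge at 18 h. Whether peaks that left the window still lay together was not tested. Without the SCNx mouse of CT0 the share between 18 and 24 h was 19.2%, and without that of CT32 it was 38.5%. In Ctrl the share was 46.2% without the mouse of CT44, the lowest value when any 1 Ctrl library was left out, and 67.9% without that of CT4 or that of CT32.

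The members moved together from library to library. Relative to its own group mean, the median member was highest at CT44 in Ctrl, by 0.14 on the log2 scale with 71 of 78 members above their mean, and lowest at CT16, by -0.12 with 6 of 78 above it. In SCNx it was highest at CT0 (0.17, 76 above) and CT16 (0.15, 71 above), and lowest at CT32 (-0.26, 5 above). The lowest value of 65 members in SCNx was the CT32 mouse, and the highest value of 36 members was the CT0 mouse and of 28 the CT16 mouse. Matching counts over all tested genes were not made, so these counts are descriptions. CT8 and CT32 are the same phase of both cycles, and in SCNx they stood on opposite sides with 0.08 and -0.26. Both subunits moved on the same side of 0 in 22 of the 24 libraries.

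The library with the lowest members in SCNx was also the one with the most astrocyte RNA and with the lowest sum of epithelial markers, and the libraries lowest in Ctrl and highest in SCNx were the pair with hepatocyte RNA. Ctrl CT4, with the most astrocyte RNA and the lowest epithelial sum of Ctrl, had its members higher, with a median deviation of 0.06 and 53 of 78 above their mean. The part of these cells in the values of the members was not tested. The median of all tested genes stayed within -0.015 and 0.007 of its group mean in every library; the scaling holds that median near 0.

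The profile of the members over the libraries was shared by other genes with short transcripts. Among tested genes that are no members, 1597 have a longest coding transcript of at most 1500 bases, a limit chosen after the data were seen. Their median deviation had the same sign as that of the members in 24 of 24 libraries, with a gap of at most 0.06 and a median gap of 0.02. It was 0.09 at CT44 and -0.07 at CT16 in Ctrl, and 0.16 at CT0 and -0.27 at CT32 in SCNx. Of the members, 46 have such short transcripts and 32 longer ones, and the medians of both had the same sign in 22 of 24 libraries. Among the 1597 genes, 40.5% of fitted peaks in Ctrl and 42.0% in SCNx lay between 18 and 24 h, between the share of the members and that of all genes, and 6.45% were called rhythmic in Ctrl.

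**Figure D2:**
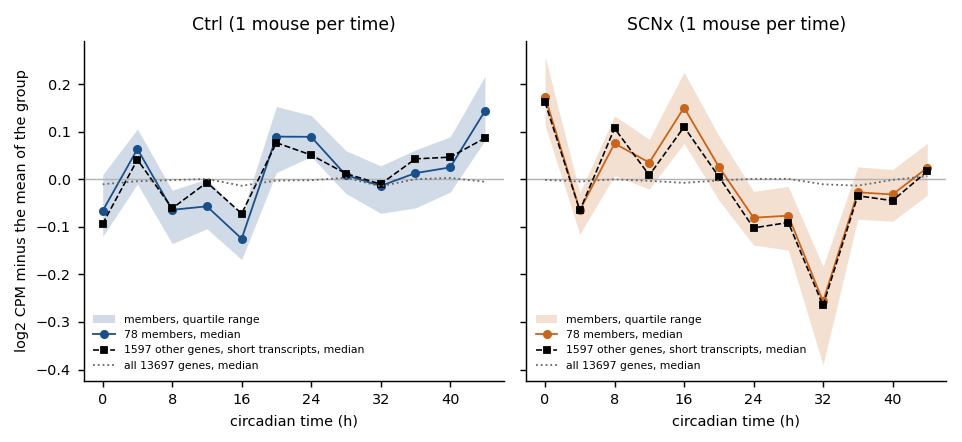
Median deviation of log2 CPM from the group mean in each library by circadian time for the 78 members (coloured line, with the range between the quartiles of the members shaded), for 1597 other genes with short transcripts (dashed) and for all 13697 tested genes (dotted), with 1 mouse per time. Members and other short-transcript genes lie on the same side of 0 in all 24 libraries. They stand at 0.14 and 0.09 at Ctrl CT44 and at -0.26 and -0.27 at SCNx CT32, while the scaling holds the median of all genes near 0. At some times both lie apart, as at Ctrl CT12 with -0.06 and -0.01 and at SCNx CT16 with 0.15 and 0.11.

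With a term for that shared profile in the model, 13 members were called rhythmic in Ctrl, against 17.4% of all genes, and these included the 4 named above. The member with the smallest adjusted p was then Mrpl36 (0.00123), followed by Mrps17 (0.00150) and Mrps10 (0.00252), all by edgeR's quasi-likelihood test. For Mrpl36 the difference between the groups then passed as well (adjusted p = 0.0430, edgeR), as the only member, against 3.92% of all genes. The peak of Mrps10 was at 6.15 h in that fit, and Mrpl43, Mrpl58 and Mrps9 peaked at 4.87, 7.29 and 6.30 h. The called members then held phases of both the subjective night and the subjective day. Mrpl58 frees stalled ribosomes by cutting the peptide from the tRNA. The share of peaks between 18 and 24 h was 48.7% in Ctrl and 32.1% in SCNx, against 29.6% and 27.3% of all genes in the same fit.

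Correlations across the 12 libraries of a group give the same picture. The median Pearson's r over the 3003 pairs of members was 0.47 in Ctrl and 0.66 in SCNx, and the median r of a member with the mean of the rest was 0.70 and 0.84. The points share library composition and depth, no matching r over all tested genes was computed, and the values are descriptions. Mrpl21, Mrps21 and Mrpl13 followed the rest most closely in Ctrl (0.96, 0.93 and 0.91). Mrpl24, Mrps9, Mrps10 and Mrps18b followed it least (-0.16, 0.10, 0.10 and 0.19).

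**Figure D3:**
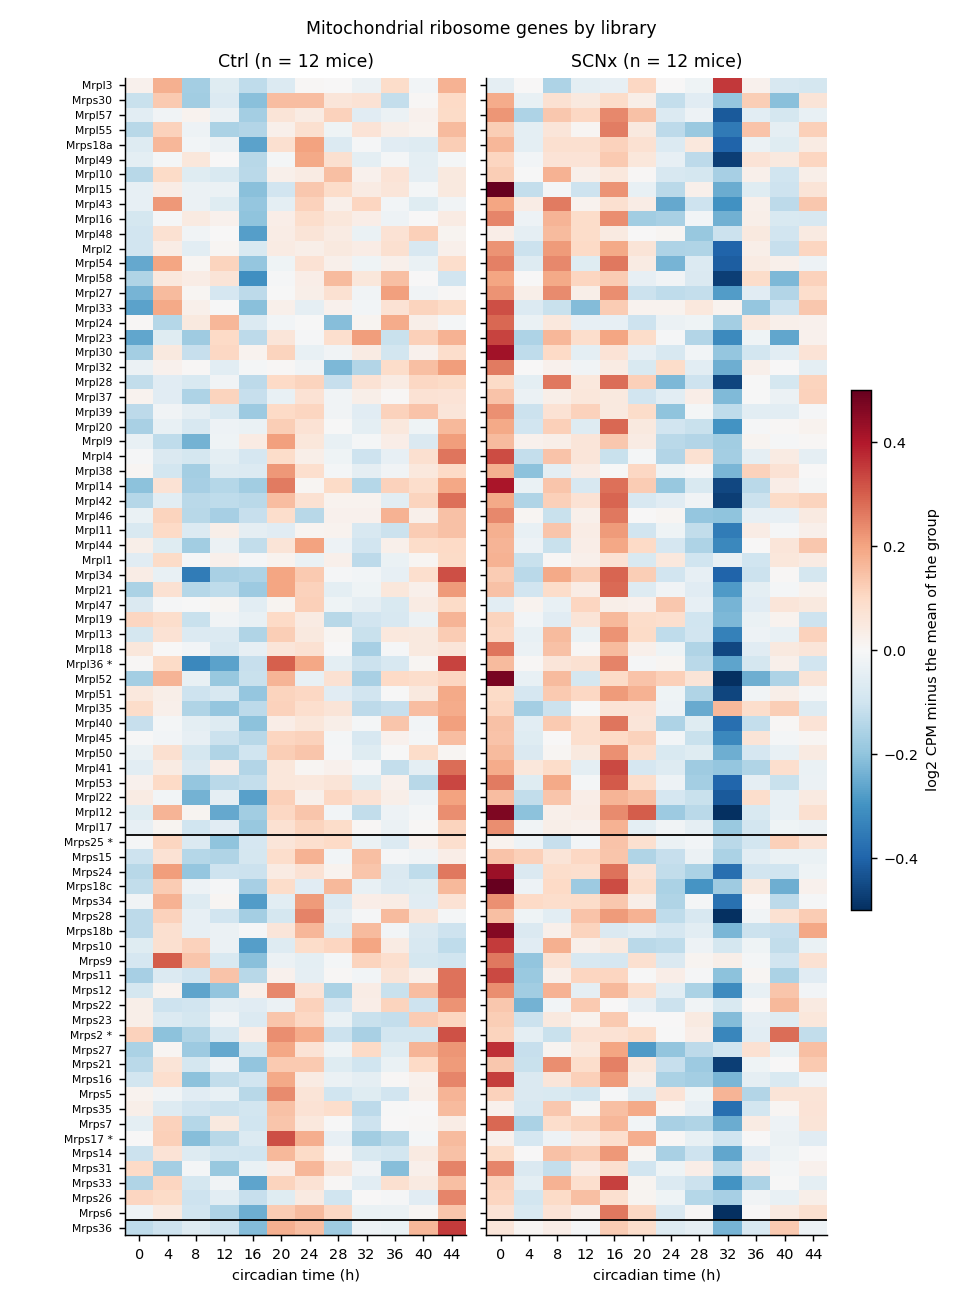
Deviation of log2 CPM from the group mean for each of the 78 members (rows) in each library (columns, circadian time in h) of Ctrl (left) and SCNx (right). Colours are capped at 0.5 above and below the mean, lines part the large subunit (top), the small subunit and Mrps36, members are ordered by fitted peak in Ctrl, and a star marks the 4 with a called rhythm. The columns of SCNx CT0 and CT16 are mostly red and that of SCNx CT32 mostly blue.

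In SCNx no member was called rhythmic with edgeR, nor was any other gene of the table (0% called). Of the members 6 had an unadjusted p under 0.05, against 14.8% of all genes. The smallest adjusted p were 0.151 for Mrpl44 and 0.152 for Mrps25 (edgeR). Mrpl44, a protein of the large subunit with a ribonuclease III fold, varied in SCNx from 9.82 CPM at CT32 over a median of 12.4 to 14.03 CPM at CT16, with an amplitude of 0.16 ± 0.04. Mrpl12, which forms the stalk that recruits translation factors, had an amplitude of 0.22 ± 0.09 and ran from 21.9 CPM at CT32 to 43.1 CPM at CT0, the same 2 libraries that stood apart, with an adjusted p of 0.244 (edgeR). Mrpl52 and Mrpl33 completed the 5 smallest, with adjusted p of 0.261 and 0.280 (edgeR).

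The difference of the rhythms between Ctrl and SCNx was called for no member either, against 2.12% of all genes, and 4 members had an unadjusted p under 0.05, against 15.1%. These were Mrps25, Mrps17, Mrpl35 and Mrpl36, followed by Mrpl49. A p that misses the threshold does not show that the rhythms were alike. Simulated data had the depth of the libraries and the estimated spread of each gene. Genes were drawn independently, so the deviations that members share within a library were absent. In the simulated data, a difference made by a rhythm of log2 amplitude 0.4 in Ctrl alone was recovered for 47.5% of genes. A rhythm of amplitude 0.2 in Ctrl was recovered for 11% and one of 0.1 for 0%, so most simulated rhythms of these sizes were missed. The 200 changed genes were drawn from all 13697 tested genes, and no other gene was changed. These shares therefore need not hold for the members.

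The level of the members was also compared between SCNx and Ctrl with all times pooled. No member was called by edgeR's quasi-likelihood test (0% of all genes were called), and 1 member, Mrpl4, had an unadjusted p under 0.05, against 9.37% of all genes. Mrpl4, a protein of bacterial descent near the exit tunnel of the large subunit, ran in Ctrl from 18.5 CPM over a median of 19.4 to 23.9 CPM and in SCNx from 16.2 CPM over a median of 17.9 to 22.8 CPM. Its SCNx mice lay lower in the middle, but the ranges overlapped. The log2 fold change was -0.12 ± 0.05 (SE) with a 95% interval of -0.23 to -0.02 and an adjusted p of 0.495 (edgeR).

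Of the other lower members, those with the smallest p were Mrps23 (-0.06), Mrpl37 (-0.05), Mrpl43 (-0.08) and Mrps12 (-0.10), and of the higher members Mrpl15 (0.10), Mrps15 (0.06), Mrpl46 (0.05), Mrps10 (0.05) and Mrps22 (0.04), with adjusted p of 0.631 to 0.828 (edgeR). Mrpl15 stood at 31.0 CPM in the SCNx CT0 mouse and at 18.5 to 25.6 CPM in the other 11. Over all members the log2 fold change ran from -0.12 to 0.10 with a median of -0.01, beside 0.01 over all genes, and its median size was 0.025 against 0.056 over all genes. It was below 0 for 48 members and above 0 for 30, against 43.5% of all genes below and 56.5% above 0. The 95% intervals of the members all lay between -0.234 and 0.233, so larger pooled changes of level were outside the interval of every member.

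**Figure D4:**
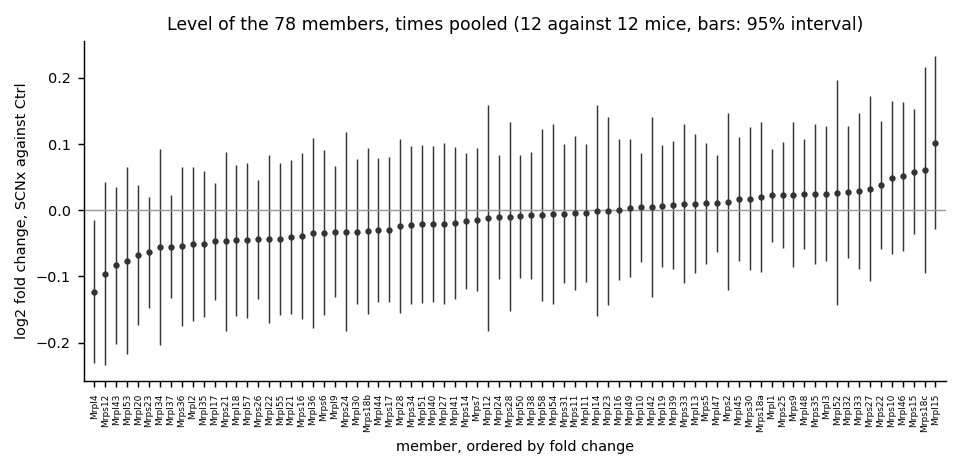
Log2 fold change of each of the 78 members, SCNx against Ctrl with all times pooled (12 against 12 mice), ordered by size; bars are 95% intervals of the fit. Only the interval of Mrpl4, at -0.12, leaves out 0, and all intervals lie between -0.234 and 0.233.

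SCNx libraries were also more dispersed. The coefficient of variation of a member over the 12 mice was 7.72% for the median member among Ctrl and 10.4% among SCNx, and the highest value was 1.30 times the lowest for the median member of Ctrl and 1.46 times for that of SCNx. The widest ranges were 1.59 and 2.11 times. This difference was not tested, and SCNx holds the libraries of CT0 and CT32 that stood apart.

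Genes around the mitoribosome were taken from lists. Of 5 further mitoribosomal proteins without such a symbol, among them Dap3 and Ptcd3, 0 were called rhythmic in Ctrl. Of 15 tested mitochondrial translation factors 2 were: Gfm2, which splits spent ribosomes into subunits (amplitude 0.20, peak 21.2 h, adjusted p = 0.00561), and Mtfmt, which formylates the initiator tRNA (0.23, 20.0 h, adjusted p = 0.0283), both by edgeR. Of 25 assembly factors 3 were: Noa1, a GTPase (0.19, 20.8 h), Fastkd2, an RNA-binding protein (0.21, 21.5 h), and Trub2, a pseudouridine synthase (0.20, 8.69 h).

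Of 20 mitochondrial aminoacyl-tRNA synthetases 3 were called, Iars2 with a peak at 8.07 h, Cars2 at 23.2 h and Ears2 at 19.0 h. Of 11 regulators of mitochondrial biogenesis only Esrra, an orphan nuclear receptor, was called (amplitude 0.16, peak 22.3 h, adjusted p = 0.0325, edgeR). None of these genes was called for the difference of rhythms or for the level, and each count of rhythmic genes lay within 1 gene of what the 10.7% of all genes would give. Most of those called had fitted peaks in the late subjective night, as most members did, while Trub2 and Iars2 peaked in the subjective day.

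The products of the mitochondrial genome itself gave no call. None of the 13 mitochondrial messages and neither of the 2 mitochondrial rRNAs was called rhythmic in Ctrl or SCNx or different in level. Over all genes 10.7%, 0% and 0% were called. The median fitted log2 amplitude of the messages was 0.23 in Ctrl and 0.15 in SCNx, against 0.110 and 0.091 over all genes. The missing calls therefore do not show flat levels. The messages summed to 37274 CPM at CT36 over a median of 52368 to 82967 CPM at CT4 in Ctrl and to 45806 over 61269 to 70622 CPM in SCNx, so the groups overlapped and Ctrl was the wider. Their highest Ctrl library was one of those with RNA of other brain cells. The sum of the members had another order, with its highest Ctrl value of 1976 CPM at CT44 and its lowest of 1641 CPM at CT16.

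In KO the deletion could not be checked from these values. Arntl stood at 12.9 CPM at ZT7 and 10.7 CPM at ZT18, against a mean of 16.1 CPM over Ctrl times that span its own large rhythm. On the log2 scale used for the members it lay 0.42 above the Ctrl mean at ZT7 and 0.15 above it at ZT18. The table counts all exons of a gene together, so the loss of a part of it in some cells need not lower the count. The libraries also differed from Ctrl in composition: the 2 mitochondrial rRNAs summed to 202362 and 175322 CPM against 1917 to 4980 CPM in Ctrl, and astrocyte markers to 599 and 725 CPM.

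Against the mean of the 12 Ctrl mice, the median member was lower by -0.12 on the log2 scale at ZT7 and by -0.25 at ZT18, while the median of all tested genes was -0.01 and 0.00. The other genes with short transcripts were lower still, by -0.25 and -0.38. The members below the Ctrl mean numbered 45 at ZT7 (57.7%) and 54 at ZT18 (69.2%), against 50.4% and 49.7% of all genes and 62.7% and 70.3% of the other genes with short transcripts. At least 2-fold lower were 1 member at ZT7 and 6 at ZT18, against 8.17% and 7.91% of all genes, and at least 2-fold higher were 2 and 1, against 12.4% and 13.4%. The count of 6 is close to that background and the other 3 counts lie below it. With scaling to library size alone the medians were -0.41 and -0.44, beside -0.30 and -0.19 for all genes.

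The lowest members at ZT7 were Mrpl14 (-1.52), Mrps23 (-0.999) and Mrpl10 (-0.95), and at ZT18 Mrpl53 (-1.52), Mrps18c (-1.50) and Mrpl11 (-1.30). Mrpl14, a protein of the large subunit at the face towards the small one, stood at 4.62 and 5.94 CPM in KO against 11.6 to 15.9 CPM in Ctrl, and it was the only member at least 2-fold lower in both libraries, against 4.65% of all genes. Mrpl10 and Mrpl11 form the base of the stalk that carries Mrpl12. Mrps18c stood at 8.41 CPM at ZT7 and at 3.03 CPM at ZT18, against 7.77 to 9.66 CPM in Ctrl. With 1 mouse each, the difference between the KO times has no replicate check.

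The highest members were Mrpl52 (1.19 at ZT7 and 1.20 at ZT18), Mrps22 (1.18 and 0.83) and Mrpl18 (0.51 at ZT18), with Mrpl46 at 0.80 at ZT7. Mrpl52 and Mrps22, both proteins without bacterial counterpart, hold the ETS letters shown above, and Mrpl18 holds them too. Among the lowest members, Mrpl53, Mrps18c and Mrps23 also hold these letters, so they were found on both sides. Mrpl52 was the only member at least 2-fold higher in both libraries, against 10.2% of all genes, with 17.7 and 17.9 CPM against 6.79 to 8.74 CPM in Ctrl. Mrpl52 has the shortest annotated transcript of all members, 463 bases, and the KO libraries came from another kit.

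Of the rhythmic members, Mrps17, Mrpl36 and Mrps2 lay below their Ctrl means in both KO libraries, while Mrps25 lay above its mean. The counts of Mrps25 may include reads of Nr2c2, as given above. Mrps17 stood at 18.6 and 15.6 CPM, Mrpl36 at 9.67 and 8.91 CPM and Mrps2 at 20.3 and 21.8 CPM. Their Ctrl means were 30.6, 18.8 and 32.3 CPM. Mrps25 stood at 51.1 and 43.6 CPM against a Ctrl mean of 31.9 CPM. The ZT18 value exceeded the ZT7 value in 24 of the 78 members, with a median difference of -0.19, against 53.3% of all genes and 37.2% of the other genes with short transcripts, whose median difference was -0.15.

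**Figure D5:**
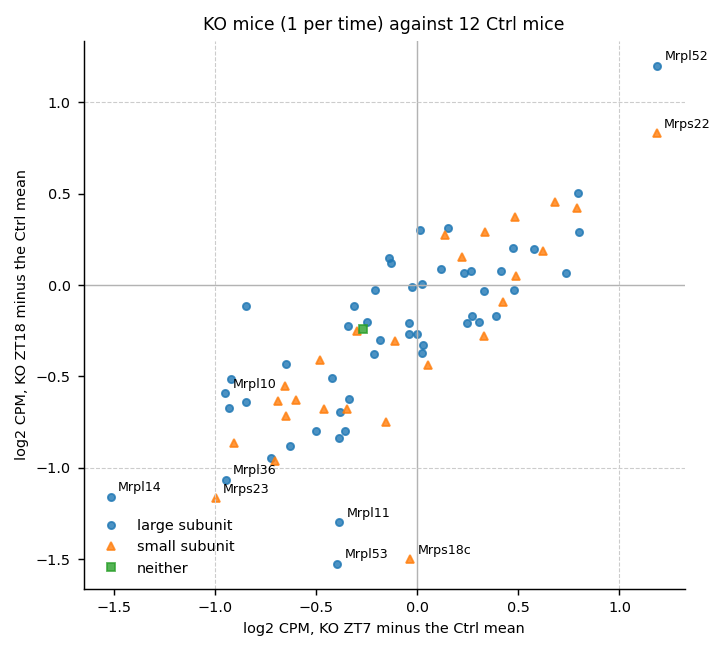
Log2 CPM in the KO mouse of ZT7 (horizontal) and of ZT18 (vertical), each minus the mean of the 12 Ctrl mice, for the 78 members by subunit; dashed lines mark 2-fold differences, and the 9 members far out are named. Mrpl52 alone lies beyond 2-fold higher and Mrpl14 alone beyond 2-fold lower in both mice.

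Mrps18a, Mrps18b and Mrps18c descend from 1 ancestral gene and sit at different places of the ribosome. Their mean Ctrl levels were 24.0, 10.4 and 10.7 CPM per kb, and the log2 fold changes in SCNx were 0.02, -0.03 and 0.06. Mrps30 had a log2 fold change of 0.02, Mrpl58 of -0.01 and Mrpl12 of -0.01. Mrps36, which is no ribosomal protein, ran in Ctrl from 17.1 CPM at CT16 over a median of 19.2 to 25.4 CPM at CT44, the libraries where the median member was lowest and highest as well. Its amplitude of 0.14 had an adjusted p of 0.167 (edgeR).

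Many members lie close to other genes. By the GENCODE annotation of GRCm38, 28 members share exon bases with a gene on the other strand and 8 with one on the same strand, and 32 have a tested gene that starts on the other strand within 1000 bases. Counts of these members may hold reads of their neighbours. Mrpl46 and Mrps11 are such a pair of members, with starts 412 bases apart and amplitudes of 0.02 and 0.06 in Ctrl, neither called.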

How the data were processed

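Choroid plexus RNA-seq of 12 Ctrl, 12 SCNx and 2 KO mice was re-analysed. The authors ran nf-core/rnaseq on GRCm39 and deposited Salmon (version 1.9.0) estimated counts per gene, not normalized; the submitters' processing notes also name STAR and SAMtools 1.16.1. These were rounded here. The 13697 genes whose mean CPM reached 1 in both groups were tested, scaled by TMM. edgeR 4.0.16 (R 4.3.3) fitted a mean, 24 h cosine and sine per group, and its quasi-likelihood test was adjusted by Benjamini-Hochberg over all genes at 0.05; a second model held the group alone. In the main fit all 24 Ctrl and SCNx libraries, 1 mouse per group and time, shared 1 estimate of the spread for each gene. The test of the Ctrl rhythm therefore also rested on the scatter of the SCNx mice. KO values are log2 CPM (prior count 1, TMM over 26 libraries) minus the Ctrl mean. Named were the 10 members with the smallest p for the Ctrl rhythm, 5 each for the SCNx rhythm and the difference, 5 per direction for the level, the 3 highest and 3 lowest per kb and in each KO library, and 8 with known roles. Members and lists were chosen with earlier results of these data known. Mouse RefSeq and GENCODE tables of GRCm38 served for promoters, lengths and neighbours. The fits were tested on simulated data. Alternatives were DESeq2 1.42.0, limma 3.58.1, other size factors and minimums, left-out libraries, further terms and a replicate block. The same-numbered mice of both groups share only a time.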

Additional observations from a re-analysis of the deposited data

How the results depend on the processing

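The 4 rhythmic members in Ctrl became 1 with no minimum CPM, 7 without Ctrl CT16 and SCNx CT0 together, 7 without Ctrl CT4 and SCNx CT32 together, 9 with a separate fit per group and, chosen after seeing the data, 13 with a term for short transcripts. Leaving out 1 library gave 1 to 7: 1 without Ctrl CT44, 2 without Ctrl CT8, and 7 without SCNx CT0 or without SCNx CT32. Mrps17 was called under all 35 alternatives, Mrps2 under 33, Mrpl36 under 32 and Mrps25 under 18. DESeq2 called 1 member rhythmic in SCNx and the short-transcript term called 1 difference of rhythm, that of Mrpl36 (adjusted p = 0.0430, edgeR, against 3.92% of all genes); the other alternatives called 0 members for these, and none called a level. With the replicate block on circadian time no member was called either (0 for the difference, 0 for the level); over all genes it called 98 differences, against 291 without it. Deviations of same-time mice correlated from -0.44 to 0.34, so the numbers do not pair the mice. With library size alone the KO medians moved to -0.41 at ZT7 and -0.44 at ZT18; with the nearest Ctrl times they were -0.08 and -0.27. The cause of these shifts was not tested. DESeq2 gave 2053 rhythmic genes in Ctrl and 432 in SCNx, edgeR 1459 and 0. What a greater depth or more mice would change was not tested.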
